A study of Mus musculus with 6 samples.

Results

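The genes described here are those of DNA replication and S phase. They were taken by name from a list of 41 genes, and 40 of these were present among the 18429 genes of the count matrix. Ung was not analysed here. Chromosomal DNA is copied in steps. Cdc6 and Cdt1 load the Mcm2 to Mcm7 helicase ring onto origins, Cdc45 and the GINS complex turn it into an active helicase, and primase with DNA polymerase alpha starts each new strand. Replication factor C then places the PCNA sliding clamp for polymerases delta and epsilon, while other members join Okazaki fragments, supply nucleotides and rebuild chromatin. Many of these genes are transcribed around the entry into S phase under E2F factors, and mature macrophages are mostly out of the cell cycle.

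The study set wild-type (WT) against cohesin-deficient macrophages at rest and during the response to LPS, a bacterial cell wall component. Bone marrow of mice with WT or lox/lox Rad21 alleles, on a mixed background and aged 6 weeks to 6 months, was grown into macrophages in medium conditioned by L929 cells, and single cells were sorted into plates for MARS-seq, which counts transcripts by unique molecular identifiers (UMIs). Both genotypes carried creERT2 at both Rosa26 alleles and received 200 nM 4-hydroxy-tamoxifen after 96 h of culture, which in Rad21 lox/lox cells deletes the gene for the cohesin subunit RAD21. Experiments were done at day 7. Each genotype was left untreated or given 10 ng/ml LPS for 2 or 8 h, so that the 6 samples hold 1 sample of each genotype and time. The Rad21-/- samples are thus an acute deletion in culture rather than a germline mutant.

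With 1 sample per condition there is no replicate check, no test was run, and all intervals are 95% intervals that cover counting error only. Of 1362 cells, 17 wells with more than 25000 UMIs were left out, which leaves 181 to 267 cells and 1197415 to 1734640 UMIs per sample. Those wells held 1.71% to 16.96% of the UMIs of 5 samples and 45.5% in WT cells at 2 h, where the replication genes stood at 1513 counts per 1000000 UMIs in them and at 1597 in the other cells. The median depth was 5544 to 5982.5 UMIs per cell in 5 samples and 7043 in Rad21-/- cells at 8 h. Levels are given in CPM, the UMIs of a gene scaled to 1000000 UMIs per sample, and are not corrected for gene length. Rad21 itself stood at 64.3, 50.9 and 34.1 CPM in WT cells that were untreated, at 2 h and at 8 h. In the corresponding Rad21-/- samples it stood at 5.46, 8.01 and 6.92, lower than in WT cells each time. All 8 macrophage markers were detected, and 100% of cells in each sample held at least 1 of their UMIs. Their sum was 7817 to 10636 CPM in the WT and 6214 to 6879 CPM in the Rad21-/- samples, and the part of this in the results was not tested. The other cell type lists held 0 to 3 markers in the matrix and reached at most 48.4 CPM, the value of the 1 progenitor marker in untreated WT cells. That marker was found in 17.9% to 29.7% of cells per sample. The T and NK cell list and the erythroid list held 0 markers. With so few rows, these lists cannot show that other cell types were absent. The cells came from 24 library pools, 23 with both genotypes and 0 with more than 1 time point, so that LPS and pool cannot be told apart, whereas genotypes can be compared within pools.

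Replication transcripts were most abundant in untreated and 2 h WT macrophages and were lower in every other sample. Summed over the 40 genes, they made up 1486 CPM in untreated WT cells (interval 1424 to 1550), 1597 CPM after 2 h (interval 1526 to 1670) and 636 CPM after 8 h (interval 597 to 677). In Rad21-/- cells the sum was 809.6 CPM before LPS (interval 767 to 854), 660.1 CPM after 2 h (interval 616 to 707) and 568 CPM after 8 h (interval 533 to 604). The module thus took 0.160% of all UMIs at its highest and 0.0568% at its lowest. In each sample 93.7% to 98.3% of cells held at least 1 UMI of the module. Pools of at least 10 cells ranged from 1068 to 2115 CPM in untreated WT cells, and did not overlap with the 544 to 764 CPM of WT pools at 8 h.

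**Figure D1:**
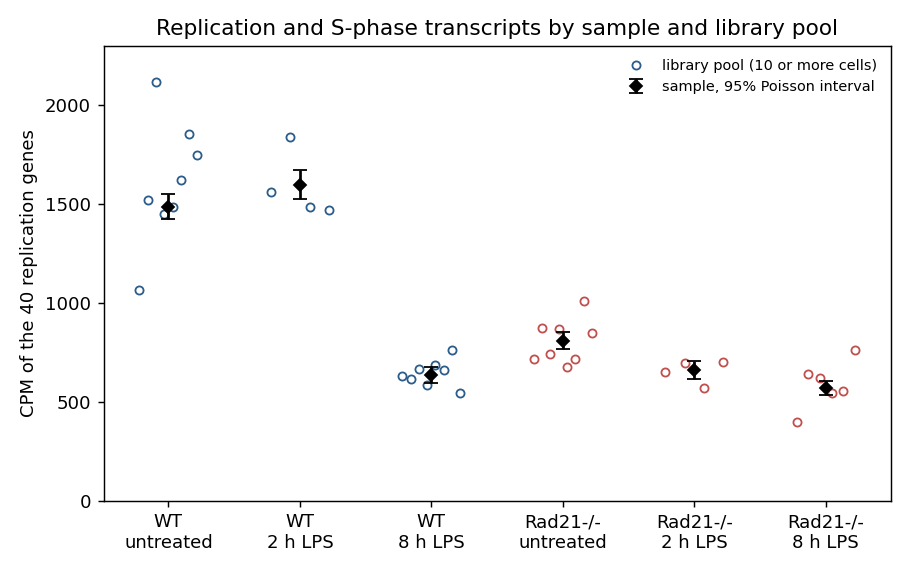
Summed CPM of the 40 replication genes (y axis) in the 6 samples (x axis). Diamonds with bars are samples with 95% Poisson intervals, and open circles are library pools of at least 10 cells. The WT untreated and 2 h pools sit at 1068 to 2115, above all pools of the other 4 samples.

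In WT macrophages the module was lower after 8 h of LPS. Its share of UMIs was 2.34-fold lower than in untreated cells (2.17 to 2.52). Of the 37 genes with at least 60 UMIs over the 6 samples, 30 were lower by at least 1.5-fold and 0 were higher, where 33.4% and 11.6% of all 13058 genes with that many UMIs were. The median log2 ratio of these 37 genes was -1.65, beside -0.28 over all genes. Without the UMI minimum, 33 of the 40 genes were lower by at least 1.5-fold. The share of all genes without that minimum is not given here. After 2 h the module differed little from untreated cells (1.07-fold higher, 1.01 to 1.14), with 4 genes higher and 2 lower by that fold, against 10.5% and 16.3% of all genes. That small excess was absent without Pcna, with equal weight per pool, or without pool 2323AA, as given under the dependence on processing.

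Rad21-/- macrophages started from a lower level and the module was lower again at both times of LPS. It was 1.23-fold lower at 2 h than in untreated Rad21-/- cells (1.12 to 1.34), with 1 gene higher and 15 lower by at least 1.5-fold, against 12.0% of all genes in each direction. At 8 h it was 1.43-fold lower (1.31 to 1.55), with 2 genes higher and 21 lower, where 14.5% and 17.1% of all genes were. The median log2 ratio was -0.47 at 2 h and -0.86 at 8 h. Because the pools differ between times, these folds share with the WT ones that LPS and pool cannot be told apart.

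Between genotypes the module was lower in Rad21-/- cells before and early after LPS. In untreated cells it was 1.84-fold lower (1.71 to 1.97), with 22 of the 37 genes lower and 0 higher by at least 1.5-fold, against 15.0% and 7.83% of all genes. Rad21-/- cells were lower in all 8 pools with at least 10 cells of each genotype, at 0.351 to 0.673 of the WT value of the same pool. At 2 h the module was 2.42-fold lower (2.23 to 2.63), with 26 genes lower and 0 higher, against 14.2% and 13.5% of all genes. All 4 pools with enough cells showed this direction, at ratios of 0.380 to 0.477. These comparisons use the same WT samples as the LPS comparisons above and are not independent of them.

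At 8 h the genotypes were close. The module was 1.12-fold lower in Rad21-/- cells (1.02 to 1.23), 9 genes were higher and 8 lower by at least 1.5-fold, and 24.6% and 10.2% of all genes were. The median log2 ratio was -0.16 over the 37 genes and 0.21 over all genes. Rad21-/- cells were lower in 4 of 6 pools, with ratios from 0.629 to 1.40. The direction turned when UMIs per cell were compared without scaling (log2 ratio 0.18, at a higher median depth in Rad21-/- cells) and when Pcna was left out (0.075).

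**Figure D2:**
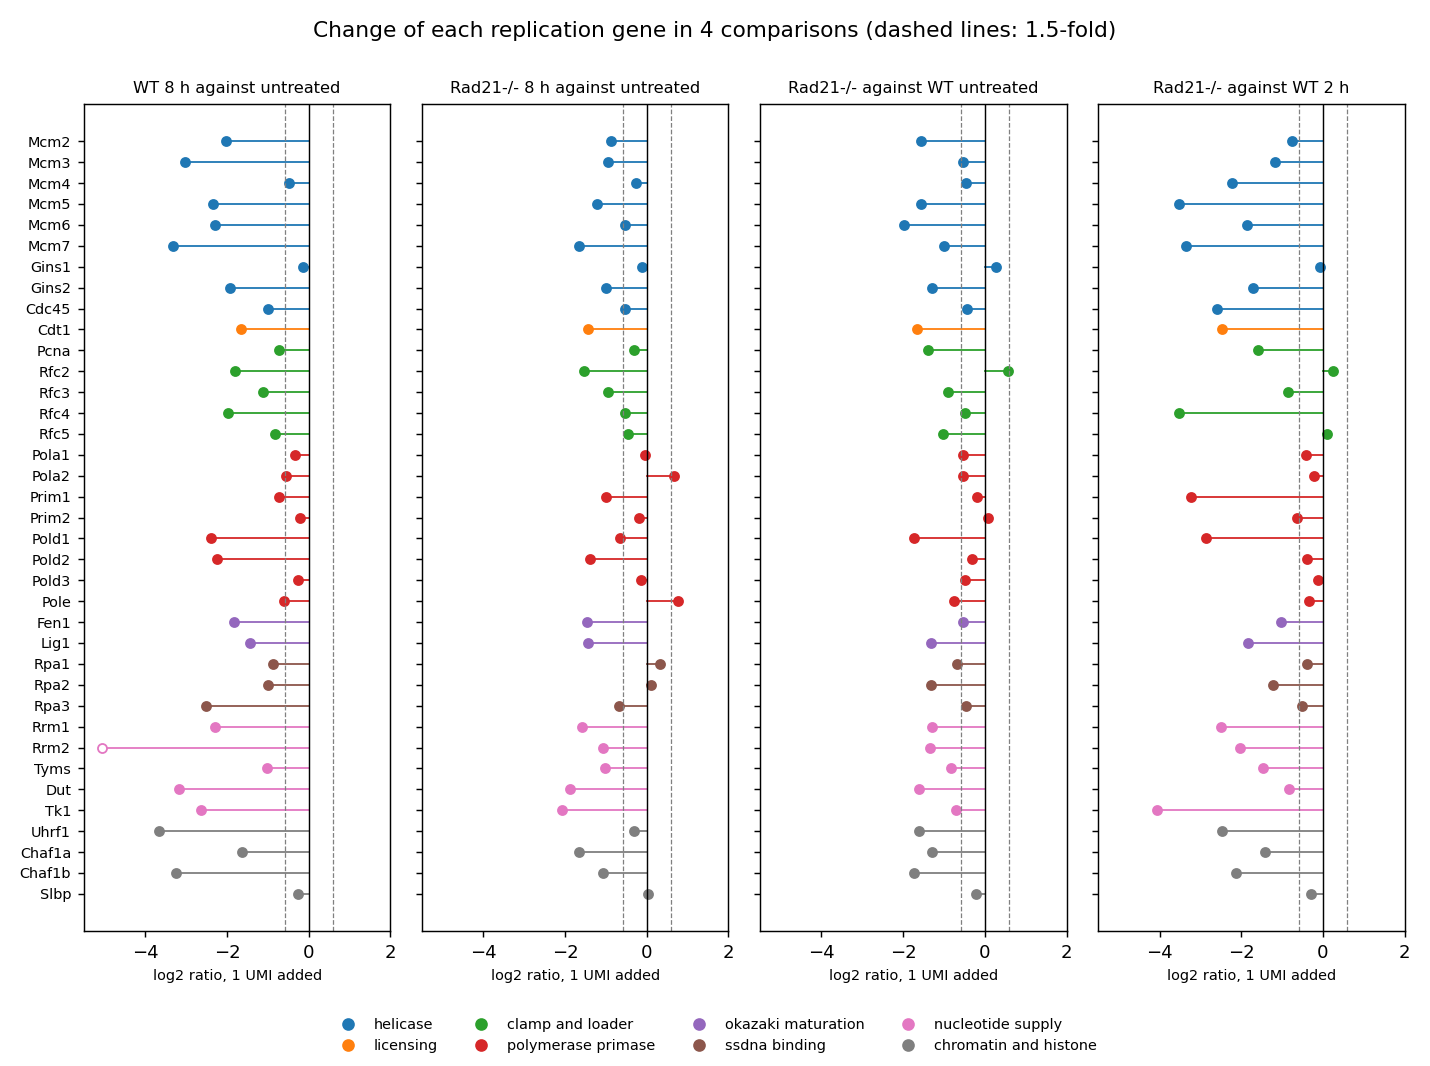
Log2 ratio of CPM with 1 UMI added to each sample (x axis) for the 37 genes with at least 60 UMIs (y axis, coloured by role), in 4 comparisons. Dashed lines mark 1.5-fold, and the open circle is Rrm2, whose WT 8 h sample held 0 UMIs so that its position depends on the added UMI. In the WT 8 h panel 30 genes lie beyond the left line, and in the untreated genotype panel 22 do.

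Among the helicase genes, the 10 members together stood at 373, 380.0 and 127 CPM in untreated, 2 h and 8 h WT cells, and at 212, 136.98 and 143 in Rad21-/- cells. Mcm7, a subunit of the Mcm2 to Mcm7 ring, stood at 24.9, 40.1 and 1.93 CPM in WT cells and at 12.1, 3.20 and 3.46 in Rad21-/- cells. Untreated and 2 h WT cells thus stood above the other 4 samples. The 3 UMIs of Mcm7 in WT cells at 8 h against 36 in untreated cells gave a 12.9-fold lower level (4.08 to 65.6), and in Rad21-/- cells the 8 h level was 3.51-fold lower than untreated (1.36 to 10.7). Mcm6, of the same ring, stood at 68.5, 51.8 and 13.5 CPM in WT cells and at 16.99, 13.6 and 11.5 in Rad21-/- cells. It showed the largest genotype difference among the 37 genes in untreated cells, 4.03-fold lower in Rad21-/- cells (2.63 to 6.37). Mcm5 stood at 35.3, 45.1 and 6.43 in WT cells and at 11.5, 3.20 and 4.61 in Rad21-/- cells. At 2 h it was 14.1-fold lower in Rad21-/- cells (5.19 to 53.5).

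Mcm3 kept more of its level at 8 h in Rad21-/- than in WT cells. It stood at 51.2, 56.8 and 5.78 CPM in WT cells and at 35.2, 24.8 and 17.9 in Rad21-/- cells. After 8 h of LPS it was 3.09-fold higher in Rad21-/- than in WT cells (1.44 to 7.38), having been 1.45-fold lower in untreated cells (1.02 to 2.09). Mcm7 also turned, from 2.05-fold lower untreated (1.16 to 3.74) to 1.79-fold higher at 8 h, on 6 against 3 UMIs (0.383 to 11.1). Cdc45, which activates the helicase, was higher in WT cells at 2 h, at 18.4 CPM against 8.30 untreated (2.21-fold, 1.05 to 4.91). Its other levels were 3.86 in WT cells at 8 h and 6.07, 2.40 and 4.04 in Rad21-/- cells. Gins1, a GINS subunit, stood apart from the helicase genes above. It stayed between 55.3 and 77.7 CPM in the 6 samples, with an 8 h to untreated ratio of 0.909 in WT cells (0.673 to 1.23) and an untreated Rad21-/- to WT ratio of 1.21 (0.917 to 1.59). Its partner Gins2 stood at 52.6, 51.8 and 13.5 in WT cells and at 21.2, 15.2 and 10.4 in Rad21-/- cells. Mcm2 and Mcm4 ranged from 5.76 to 33.2 and from 5.61 to 29.2 CPM. Mcm10, which helps start the helicase, had too few UMIs for the minimum, with 14.5, 5.01 and 1.29 CPM in WT cells, 6.07 and 1.73 in untreated and 8 h Rad21-/- cells, and 0 UMIs in Rad21-/- cells at 2 h.

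The licensing factors Cdt1 and Cdc6 load the ring onto origins. Cdt1 stood at 43.6, 30.1 and 13.5 CPM in WT cells and at 13.4, 4.81 and 4.61 in Rad21-/- cells. At 8 h it was 2.93-fold lower in Rad21-/- than in WT cells (1.25 to 7.64), the lowest log2 ratio of the 37 genes in that comparison. In WT cells at 2 h it was 1.45-fold lower than untreated, with an interval that includes no difference (0.948 to 2.25). Cdc6 was below the UMI minimum and ranged from 0.643 CPM in WT cells at 8 h to 6.92 in untreated WT cells.

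Pcna, the sliding clamp, gave 14.4% to 29.3% of the module's UMIs. It stood at 308, 413 and 186.4 CPM in WT cells and at 117, 136 and 93.97 in Rad21-/- cells. The 3 WT samples thus lay above the 3 Rad21-/- samples. Pcna was 2.64-fold lower in untreated Rad21-/- cells (2.23 to 3.15), 3.03-fold lower after 2 h (2.54 to 3.63) and 1.98-fold lower after 8 h (1.63 to 2.42). Its values are uncertain because a processed copy, Pcna-ps2, is a row of its own and may share reads with it. Pcna-ps2 stood at 154.3, 223 and 98.97 CPM in WT cells and at 64.9, 80.1 and 52.5 in Rad21-/- cells, in the same order of samples.

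All 4 measured subunits of the clamp loader, replication factor C, were lower at 8 h than untreated in both genotypes, while at 2 h and between genotypes they differed from one another. Rfc2 stood at 28.4, 40.1 and 7.71 CPM in WT cells and at 42.5, 48.1 and 14.4 in Rad21-/- cells. It was the highest of the 37 genes in Rad21-/- against WT cells untreated, at a ratio of 1.497 (1.004 to 2.26), and at 2 h, at 1.20 (0.807 to 1.79). Rfc4 showed the reverse order at 2 h. Its level was 14.5, 17.5 and 3.21 in WT cells and 10.3, 0.801 and 6.92 in Rad21-/- cells, where the 2 h value is a single UMI against 17 untreated. That is 12.9-fold lower than untreated (2.02 to 538) and 21.9-fold lower than WT cells at 2 h (3.52 to 905), limits that show how little 1 UMI fixes. Rfc5 stood at 15.2, 12.5 and 8.35 in WT cells and at 7.28, 13.6 and 5.19 in Rad21-/- cells, with a 2 h to untreated ratio of 1.87 in the latter (0.842 to 4.29). Rfc3 ranged from 6.34 to 24.2 CPM.

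As a sum, the polymerase and primase genes differed less between samples than any other role, at 202, 200.4 and 128.5 CPM in WT cells and 149.9, 124.2 and 137.2 in Rad21-/- cells. Prim2, the large primase subunit, stood at 57.4, 57.6 and 49.5 CPM in WT cells and at 60.7, 36.8 and 53.04 in Rad21-/- cells. The 2 h value in Rad21-/- cells was the lowest, 1.65-fold below untreated (1.15 to 2.39) and 1.56-fold below WT cells at 2 h (1.06 to 2.32). Its ratio was 0.862 in WT cells at 8 h against untreated (0.624 to 1.19) and 1.06 in untreated Rad21-/- against WT cells (0.782 to 1.43). Prim1, the catalytic primase subunit, varied more. It stood at 11.1, 21.7 and 6.43 in WT cells and at 9.71, 1.60 and 4.61 in Rad21-/- cells. Prim1 was 1.96-fold higher at 2 h than untreated in WT cells (1.01 to 3.91) and 6.06-fold lower in Rad21-/- cells (1.42 to 54.3).

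Pold1, the catalytic subunit of polymerase delta, stood at 29.8, 22.5 and 5.14 CPM in WT cells and at 8.50, 2.40 and 5.19 in Rad21-/- cells. Untreated, it was 3.50-fold lower in Rad21-/- cells (1.88 to 6.93). Pold2, an accessory subunit, stood at 14.5, 7.52 and 2.57 in WT cells and at 11.5, 5.61 and 4.04 in Rad21-/- cells. Its WT ratio at 2 h, 0.517 (0.209 to 1.18), was the lowest of the 37 genes in that comparison. The other accessory subunit measured, Pold3, ranged only from 13.8 to 21.7 CPM, with an 8 h to untreated ratio of 0.839 in WT cells (0.485 to 1.45). Pole, the catalytic subunit of polymerase epsilon, stood at 18.7, 18.4 and 12.2 in WT cells and at 10.9, 14.4 and 19.0 in Rad21-/- cells. Its 8 h to untreated ratio in Rad21-/- cells was 1.74 (0.953 to 3.29), the highest of the 37 genes in that comparison by log2 ratio, followed by Pola2, the regulatory subunit of polymerase alpha, at 1.63 (0.809 to 3.41). Both intervals include no difference. Pola2 stood at 12.5, 14.2 and 8.35 in WT cells and at 8.50, 12.02 and 13.8 in Rad21-/- cells. Pola1, its catalytic subunit, ranged from 21.9 to 33.4 CPM. Pole2 was below the UMI minimum, at 0.643 to 6.41.

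Fen1 and Lig1 process and join Okazaki fragments. Lig1, the ligase, stood at 33.9, 39.3 and 12.2 CPM in WT cells and at 13.4, 10.4 and 4.61 in Rad21-/- cells. At 8 h it was 2.65-fold lower in Rad21-/- cells (1.11 to 6.99). Fen1, the flap endonuclease, stood at 29.1, 35.1 and 7.71 in WT cells and at 20.0, 16.8 and 6.92 in Rad21-/- cells. Both genes were thus lowest at 8 h in either genotype. The 3 subunits of RPA, which coats single-stranded DNA, had WT 8 h values of 23.1 for Rpa1, 11.6 for Rpa2 and 4.499 for Rpa3, against 42.9, 23.5 and 28.4 untreated. At 2 h Rpa1 stood at 40.1, Rpa2 at 14.2 and Rpa3 at 20.9, a ratio for Rpa2 of 0.603 (0.316 to 1.11). In Rad21-/- cells Rpa1 stood at 26.7, 30.4 and 33.4 CPM, a ratio of 1.25 at 8 h (0.832 to 1.90), while Rpa2 stood at 9.10, 5.61 and 9.80 and Rpa3 at 20.6, 14.4 and 12.7.

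Of the 8 roles, nucleotide supply had the largest fold in WT cells at 8 h against untreated. Its sum was 192, 218 and 36.0 CPM in WT cells and 83.7, 52.9 and 27.1 in Rad21-/- cells. Rrm2, the small subunit of ribonucleotide reductase, had 30 UMIs in untreated WT cells, 34 at 2 h and 0 at 8 h, which is 20.8 and 28.4 CPM and then none detected. Measured against the floor of 3 UMIs in that sample, it was at least 10.8-fold lower at 8 h than untreated, a bound that takes the 30 UMIs as exact, and the 95% limit of the ratio is 8.23-fold. Rad21-/- cells held 13, 8 and 6 Rrm2 UMIs, or 7.89, 6.41 and 3.46 CPM, so that by the same floor the 8 h level was at least 1.79-fold higher than in WT cells, with a 95% limit of 1.06-fold. Rrm1, its large partner subunit, stood at 58.8, 62.6 and 11.6 in WT cells and at 23.7, 10.4 and 7.49 in Rad21-/- cells.

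Tk1, thymidine kinase, showed the largest genotype difference at 2 h by log2 ratio. It stood at 31.1, 52.6 and 4.499 CPM in WT cells and at 18.8, 2.40 and 4.04 in Rad21-/- cells. In WT cells it was 1.69-fold higher at 2 h than untreated (1.13 to 2.54), in Rad21-/- cells 7.83-fold lower (2.44 to 40.02), and at 2 h it was 21.9-fold lower in Rad21-/- than in WT cells (7.16 to 109), on 3 against 63 UMIs. Dut, which removes dUTP, stood at 51.2, 37.6 and 5.14 in WT cells and at 16.4, 20.8 and 4.04 in Rad21-/- cells, the latter a 4.06-fold lower level at 8 h than untreated (1.73 to 11.04). Tyms, thymidylate synthase, stood at 30.4, 36.7 and 14.8 and at 16.99, 12.8 and 8.07. All 5 genes of this role were thus lower at 8 h than untreated in both genotypes.

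Uhrf1, which brings the maintenance DNA methyltransferase to replicated DNA, stood at 23.5, 25.9 and 1.29 CPM in WT cells and at 7.28, 4.01 and 5.76 in Rad21-/- cells. The 2 UMIs in WT cells at 8 h against 34 untreated gave an 18.3-fold lower level (4.69 to 157). At that time the Rad21-/- level was 4.49 times the WT level, on 10 against 2 UMIs (0.956 to 42.1). Chaf1a and Chaf1b are subunits of the chromatin assembly factor that deposits histones behind the fork. Chaf1b stood at 23.5, 20.0 and 1.93 in WT cells and at 6.68, 4.01 and 2.88 in Rad21-/- cells, 3.52-fold lower in the untreated Rad21-/- sample (1.74 to 7.71). Chaf1a stood at 17.3, 14.2 and 5.14 and at 6.68, 4.81 and 1.73, 2.97-fold lower in Rad21-/- cells at 8 h on 3 against 8 UMIs (0.714 to 17.4). Slbp, which binds the end of histone mRNA, differed little between samples, at 42.5 to 56.0 CPM.

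**Figure D3:**
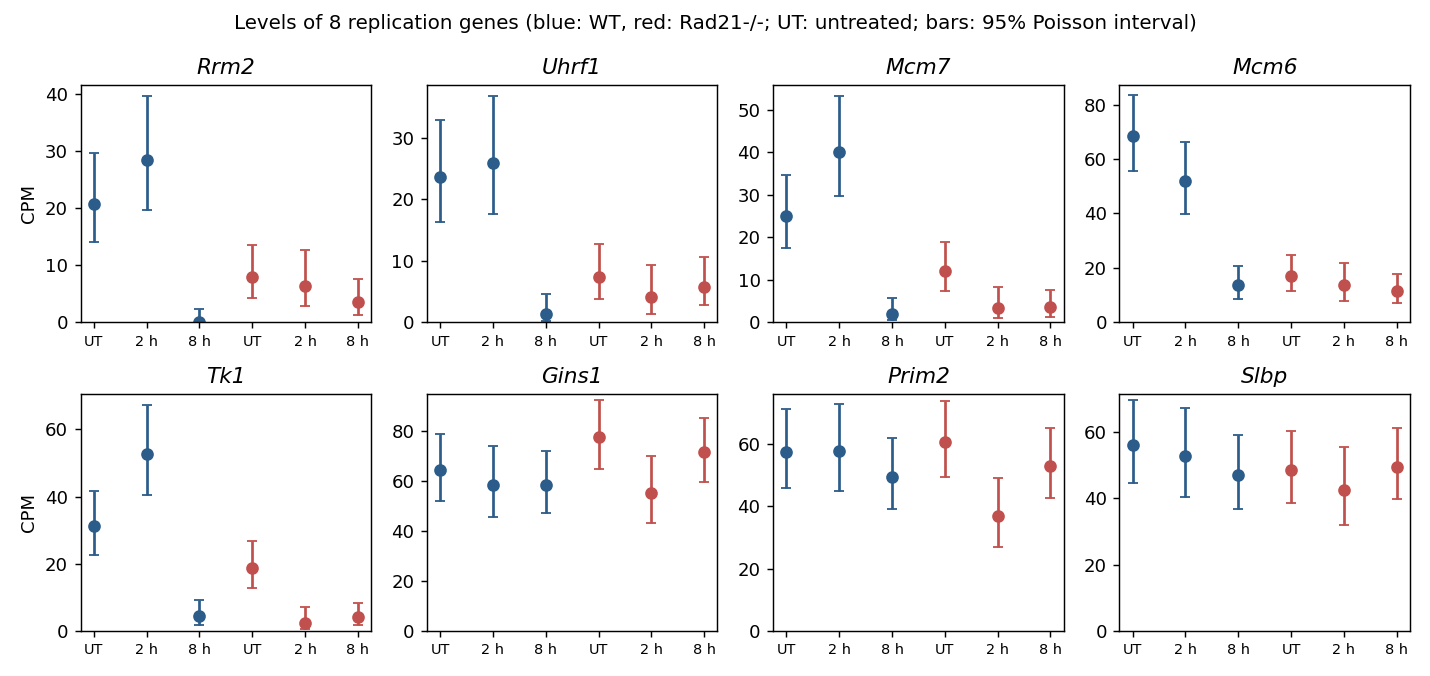
CPM (y axis) of 8 replication genes in WT (blue) and Rad21-/- (red) macrophages, untreated (UT) or after 2 or 8 h of LPS (x axis), with 95% Poisson intervals. Rrm2, Uhrf1, Mcm7, Mcm6 and Tk1 are highest in the WT untreated and 2 h samples, while Gins1 and Slbp differ by less than 1.5-fold between any samples and Prim2 is lower in Rad21-/- cells at 2 h.

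Per cell, the difference lay both in a tail of cells with many replication transcripts and in the remaining cells. Each cell with at least 3800 UMIs was thinned to that number, which kept 152 to 224 cells per sample and left out 21 to 47. The mean number of module UMIs was then 5.70, 5.94 and 2.44 in WT cells and 3.17, 2.35 and 2.21 in Rad21-/- cells. Cells at or above 13 module UMIs, the 90th percentile of untreated WT cells, were counted as high. By this limit, which cuts a range and defines no cell type, 20 of 191 untreated WT cells were high (10.5%). That share is set by the choice of the limit and is no estimate. At 2 h 17 of 160 WT cells were high (10.6%, 6.31 to 16.5). Of untreated Rad21-/- cells 7 of 220 were high (3.18%, 1.29 to 6.45). None of 224 WT cells at 8 h, 152 Rad21-/- cells at 2 h and 201 Rad21-/- cells at 8 h were, which allows shares of up to 1.34%, 1.97% and 1.49% by the limit of 3 counts and up to 1.63%, 2.40% and 1.82% by the exact interval. High cells occurred in 8 of 8 pools of untreated WT cells, 5 of 7 at 2 h and 5 of 8 of untreated Rad21-/- cells.

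**Figure D4:**
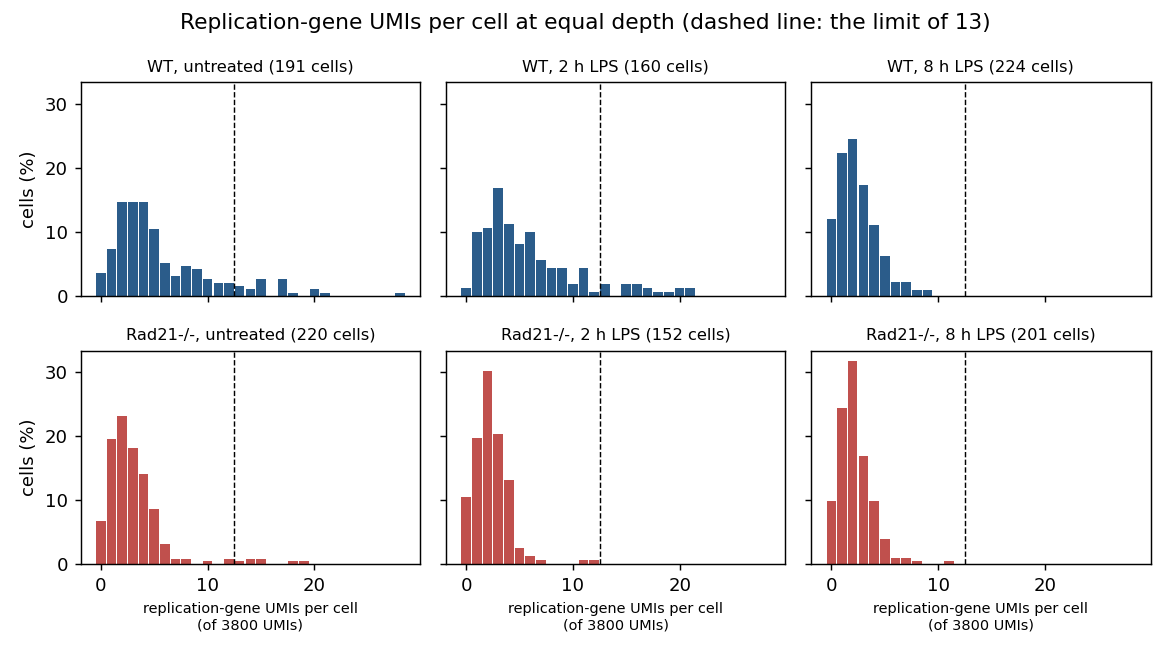
Percent of cells (y axis) by number of replication-gene UMIs per cell after thinning to 3800 UMIs (x axis), for the 6 samples. The dashed line is the limit of 13 UMIs. Untreated and 2 h WT cells reach 28 and 21 UMIs and untreated Rad21-/- cells 19, while the other 3 samples end at 9 to 12.

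The high cells held 30.7%, 30.0% and 15.5% of the thinned module UMIs of untreated WT, 2 h WT and untreated Rad21-/- cells. Below the limit the means still differed, at 4.41 and 4.65 UMIs in untreated and 2 h WT cells, 2.77 in untreated Rad21-/- cells and 2.21 to 2.44 in the other 3 samples. High cells were sequenced somewhat more deeply before thinning, with a median of 7718.5 UMIs against 6110 for the other untreated WT cells, and the part of depth in these values was not tested. Transcripts of mitosis went with the tail in part. At least 1 UMI of 20 mitosis genes was found in 95% of high and 67.8% of other untreated WT cells, in 94.1% and 62.2% at 2 h, and in 100% and 52.1% of untreated Rad21-/- cells. Among the samples without high cells the share was 37.9% to 43.4%.

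The members did not follow one another equally from cell to cell. For each gene, its UMIs per cell were compared between cells high in the other members, at or above their 90th percentile, and the remaining cells of the sample. In untreated WT cells the median ratio over the 37 genes was 3.21, and 23 genes had a ratio of at least 2. Rrm2 had the largest, 34.8 (7.41 to 327), on 10 UMIs in 24 high cells and 2 in the other 167. Mcm7 followed at 8.93 (3.36 to 24.4), then Lig1 at 6.96 (2.86 to 16.9), Pola2 at 5.84 (1.16 to 27.1) and Tk1 at 5.48 (2.04 to 14.2). At the other end stood Prim2 at 0.204 (0.00504 to 1.20), Pole at 0.570 (0.0135 to 3.70), Rpa1 at 0.953 (0.183 to 3.15), Pold3 at 1.27 (0.136 to 5.80) and Pola1 at 1.28 (0.244 to 4.32). Prim2 and Pold3 were also among the 3 least lowered genes in WT cells at 8 h, with log2 ratios of -0.21 and -0.25. Pola1, Pole and Rpa1 stood at -0.33, -0.59 and -0.87 there. Gins1, the least lowered gene at -0.14, was not among the weakest followers. Both measures use the untreated WT sample and are not independent. The median ratio across cells was 3.38 in WT cells at 2 h, 2.57 in untreated Rad21-/- cells, and 0.881 to 1.23 in the other 3 samples. These medians compare unlike groups, since the percentile lay at fewer UMIs in some samples and ties enlarged the high group. For Rrm2 it lay at 12 UMIs in untreated WT cells, with 24 cells above and 167 below. In untreated Rad21-/- cells it lay at 5 UMIs, with 39 above and 181 below. The part of this in the medians was not tested.

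Across the 37 genes, the percent of a gene's UMIs found in high WT cells at 2 h was set beside its log2 ratio in comparisons that do not use that sample. Spearman's rho was -0.53 with Rad21-/- against WT untreated (Pearson's r -0.55), -0.39 with WT 8 h against untreated (r -0.37) and -0.23 with Rad21-/- 8 h against untreated (r -0.18). Genes are not independent replicates, they share libraries and depth, and these values are given as a description. Outside the list, the genes whose UMIs correlated most with the module share over 191 untreated WT cells, of 13021 ranked, were Pcna-ps2 (r 0.51), Slfn9 (0.44), Tuba1b (0.35), Tuft1 (0.34), Hist2h2ac (0.34), Tubb5 (0.34), Odc1 (0.34), Pkmyt1 (0.33), Exosc8 (0.32) and Ndc80 (0.32). Tuft1 and Odc1 rest on 8 and 6 UMIs in that sample. Pcna-ps2 may share reads with the member Pcna, which gave 20.7% of the module's UMIs there. The part of this in its r was not tested. In WT cells at 2 h, r was 0.54 for Pcna-ps2, 0.37 for each of the tubulin genes Tubb5 and Tuba1b, 0.30 for Slfn9, 0.25 for Hist2h2ac and 0.11 for Exosc8. It lay between -0.13 and 0.05 for the other 4 genes.

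Promoter sequences show a feature that the choice of genes did not use. The RefSeq windows of GRCm38.p6 run from 250 bases before to 50 after an annotated start, with more than 1 window for some genes, and were found for 34 of the 40 genes. They were searched on both strands for the E2F motifs TTTCCCGC, TTTCGCGC, TTTGCCGC and TTTGGCGC, and for CCAAT. An E2F motif was present for 13 of the 34 genes (38.2%), beside 2.61% of 27025 genes with a window, and CCAAT for 20 (58.8%), beside 41.1%. The 27025 genes include genes not measured here, and no share over the measured or expressed genes is given. Among the 10 genes that followed the others most across untreated WT cells 3 had an E2F motif, while among the 10 that followed least 4 of the 6 with a window had one. Rrm2 and Tk1 had none in their windows. A match is a description of letters and not a bound site. For the 3 best followers with a match, Mcm7, Lig1 and Uhrf1, which have 2, 3 and 2 windows, the first listed window with a match is shown with E2F matches in capitals. These windows lie at chr5:138171834-138172133 on the minus strand, chr7:13278576-13278875 on the plus strand and chr17:56304063-56304362 on the plus strand. They are written 5′ to 3′ in the direction of the gene.
Mcm7: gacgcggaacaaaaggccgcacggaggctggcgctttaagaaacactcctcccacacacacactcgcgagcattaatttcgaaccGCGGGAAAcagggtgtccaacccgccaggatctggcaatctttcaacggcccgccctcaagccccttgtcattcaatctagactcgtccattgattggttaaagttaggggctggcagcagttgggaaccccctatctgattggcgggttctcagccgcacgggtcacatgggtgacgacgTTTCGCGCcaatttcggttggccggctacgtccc
Lig1: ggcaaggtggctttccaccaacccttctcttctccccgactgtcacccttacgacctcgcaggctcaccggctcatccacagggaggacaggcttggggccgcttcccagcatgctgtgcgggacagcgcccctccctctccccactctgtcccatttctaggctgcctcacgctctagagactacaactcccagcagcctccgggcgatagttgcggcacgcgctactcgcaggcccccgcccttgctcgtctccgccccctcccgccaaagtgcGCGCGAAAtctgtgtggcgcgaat
Uhrf1: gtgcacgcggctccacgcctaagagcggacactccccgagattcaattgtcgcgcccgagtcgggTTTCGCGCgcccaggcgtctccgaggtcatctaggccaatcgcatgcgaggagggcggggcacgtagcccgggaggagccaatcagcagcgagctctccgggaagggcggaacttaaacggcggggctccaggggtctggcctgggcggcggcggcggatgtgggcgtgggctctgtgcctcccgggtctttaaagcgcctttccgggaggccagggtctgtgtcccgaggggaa

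Other genes of the replication and division cycle were measured in the same samples. From a second list of 42 replication genes, 32 had at least 60 UMIs. Of these 3 were higher and 21 lower by at least 1.5-fold in WT cells at 8 h against untreated, and 2 were higher and 12 lower in untreated Rad21-/- against WT cells. Over all genes the shares higher and lower were 11.6% and 33.4% in the first of these comparisons and 7.83% and 15.0% in the second. At 2 h between genotypes 2 were higher and 17 lower, against 13.5% and 14.2% of all genes. At 8 h 10 were higher and 2 lower, against 24.6% and 10.2% of all genes. Summed over these 32 genes, the level was 1580, 1415 and 1520 CPM in untreated, 2 h and 8 h WT cells. In Rad21-/- cells the sum was 1241, 1073 and 1199 CPM. The WT sum was thus close to untreated at 8 h although 21 of the genes were lower. At 8 h the sum was lower in Rad21-/- than in WT cells although more genes were higher than lower. The 19 mitosis genes with enough UMIs were lower by that fold in 18 cases in WT cells at 8 h, in 16 in untreated Rad21-/- against WT cells and in 18 at 2 h between genotypes. At 8 h between genotypes 8 mitosis genes were higher and 1 lower, where 24.6% and 10.2% of all genes were. Mki67, a proliferation marker, stood at 89.3, 103 and 17.99 CPM in WT cells and at 47.9, 28.8 and 23.1 in Rad21-/- cells. Top2a, the topoisomerase of dividing cells, stood at 109, 128.6 and 10.3 and at 46.7, 24.0 and 16.7.

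Of 8 G1/S genes with enough UMIs, 0 were higher and 5 lower by at least 1.5-fold in WT cells at 8 h against untreated, and likewise 0 and 5 in untreated Rad21-/- against WT cells, where 33.4% and 15.0% of all genes were lower. Cdkn1a, the inhibitor of cyclin-dependent kinases p21, was higher at 2 h in both genotypes, at 905 CPM against 341 untreated in WT cells and at 740.2 against 161.4 in Rad21-/- cells, and stood at 403 and 236 at 8 h. Samhd1, which breaks down deoxynucleotides, was highest in WT cells at 8 h, at 720.4 CPM against 241 untreated and 209.6 at 2 h. In Rad21-/- cells it stood at 202, 224 and 371.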

How the data were processed

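The authors sorted single macrophages, prepared MARS-seq libraries, mapped reads with GEMTools 1.7.0 to GRCm38.p4 with Gencode M8, and dropped wells with too many spike-in or too few mapped reads. UMIs within an edit distance of 2 were collapsed. They deposited counts of UMIs per gene and cell without normalization. Cells were placed in samples and library pools by their column names, and both rows of the 1 repeated gene name, which is no member, were kept.

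UMIs were summed per sample over wells of at most 25000 UMIs and scaled to CPM (a total of 1000000 per sample), so that counting intervals follow the sums of 1197415 to 1734640 UMIs. Intervals were exact Poisson for sums, exact conditional for ratios and Clopper-Pearson for shares, all at 95%. Log2 ratios had 1 UMI added per sample, and genes with at least 60 UMIs over the 6 samples were counted past 1.5-fold. Cells were thinned to 3800 UMIs without replacement. No test was run, since each genotype and time is 1 sample. Named in full were the 3 highest and 3 lowest log2 ratios per comparison among the members, the 5 largest and 5 smallest ratios across untreated WT cells, Rad21, Mki67, Top2a, Cdkn1a and Samhd1, and the 10 other genes most correlated with the module. Other members are given by their values or range. The members and lists were chosen with earlier results of these data known.

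Alternatives were other UMI minimums, all wells, mean CPM per cell, thinning, unscaled UMIs per cell, pools weighted equally or left out in turn, no Pcna, the median over members, 0.5 UMI added and other percentiles for high cells. Python 3.11.15, numpy 2.4.6, pandas 2.3.3, scipy 1.17.1 and matplotlib 3.10.9 were used, and the ratios and intervals were tested on simulated data. Coordinates and promoters are from RefSeq on GRCm38.p6.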

Additional observations from a re-analysis of the deposited data

Results flagged for a closer look

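Some effects pointed one way in one genotype or time and the other way in another, each past 1.5-fold for single genes. With 1 sample per condition the difference was not tested in any case, and most rest on few UMIs. The module's log2 ratio at 2 h of LPS against untreated was -0.29 in Rad21-/- and 0.10 in WT cells, a difference of -0.40, and the WT value was near 0 under several alternatives.

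The same contrast differed by -2.35 for Mcm7 (-1.67 in Rad21-/- and 0.68 in WT cells), by -2.15 for Cdc45 (-1.06 and 1.09), by -3.04 for Prim1 (-2.10 and 0.94) and by -3.35 for Tk1 (-2.60 and 0.75). All 4 were higher in WT and lower in Rad21-/- cells at 2 h than untreated. Pole showed the opposite at 8 h, at 0.77 in Rad21-/- and -0.59 in WT cells, a difference of 1.36. Both intervals include no difference, the WT one at a ratio of 0.654 (0.343 to 1.22).

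The genotype ratio, Rad21-/- against WT, turned between untreated cells and 8 h for 4 genes. It went from -1.01 to 0.65 for Mcm7 (difference 1.66) and from -1.62 to 1.72 for Uhrf1 (3.34). For Pole it went from -0.75 to 0.61 (1.36), on 18 against 27 UMIs untreated and 33 against 19 at 8 h. For Rrm2 it went from -1.34 to 0.84, a bound set by the floor of 3 UMIs in the WT 8 h sample (difference 2.18). Between 2 h and 8 h it turned for 5 genes, by 2.69 for Mcm3 (-1.17 to 1.52), by 4.00 for Mcm7 (-3.35 to 0.65), by 4.48 for Rfc4 (-3.52 to 0.96), by 2.86 for Rrm2 (-2.02 to the bound of 0.84) and by 4.19 for Uhrf1 (-2.48 to 1.72).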

How the results depend on the processing

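No paired analysis was possible because each genotype and time is 1 sample and the labels give no replicate numbers that pair samples. Within-pool ratios of the genotypes were given as a description. The sign changed for 2 module ratios that were near 0, the WT ratio at 2 h and the genotype ratio at 8 h, while 119 of 135 alternative module ratios, 63 of 84 counts, 126 of 126 values of named genes and 19 of 24 shares stayed within the limits set for them. Those limits are not given here, and staying within them does not narrow the counting intervals of genes with few UMIs. The cause of each shift was not tested.

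On the log2 scale, the WT ratio at 2 h against untreated (0.10) became 0.23 with unscaled UMIs per cell, -0.018 with equal weight per pool and 0.0072 without Pcna. The WT 8 h ratio (-1.22) became -1.39 without Pcna and -1.65 as the median over genes. In Rad21-/- cells the 2 h ratio (-0.29) became -0.43 after thinning, -0.16 with unscaled UMIs and -0.47 as the median, and the 8 h ratio (-0.51) became -0.17 with unscaled UMIs and -0.86 as the median. Between genotypes, the untreated ratio (-0.88) became -0.997 with equal weight per pool and -0.77 without Pcna, the 2 h ratio (-1.27) became -1.42 as the median, and the 8 h ratio (-0.16) became 0.18 with unscaled UMIs and 0.075 without Pcna. Leaving out each pool in turn gave -0.0042 (without pool 2323AA) to 0.15 for WT at 2 h, -1.33 to -1.18 for WT at 8 h, -0.34 to -0.24 and -0.57 to -0.43 for Rad21-/- at 2 and 8 h, and -0.94 to -0.83, -1.36 to -1.23 and -0.23 to -0.087 between genotypes untreated, at 2 h and at 8 h.

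With a minimum of 120 UMIs, genes higher and lower by at least 1.5-fold numbered 1 and 0 for WT at 2 h, 17 lower for WT at 8 h, 0 and 6 for Rad21-/- at 2 h, 1 and 13 at 8 h, and between genotypes 13 lower untreated, 15 lower at 2 h, and 4 and 5 at 8 h, with fewer genes counted by construction. With all wells, 1 was lower in WT cells at 2 h, 2 were higher in Rad21-/- cells at 2 h and 1 was higher in untreated Rad21-/- against WT cells. By mean CPM, 4 were lower in WT cells at 2 h, and 2 and 1 were higher in Rad21-/- cells at 2 and 8 h. After thinning, 5 were lower in WT cells at 2 h and 1 was higher in Rad21-/- cells at 8 h. Without a minimum, 2 were higher in Rad21-/- cells at 2 h and 1 at 2 h between genotypes. Shares of all genes are not given for these other rules. The counts therefore show only how far the member counts shifted. For the minimum of 120 UMIs, part of that shift is the smaller number of genes counted, which is not given here. High cells at the 80th percentile made up 21.5% of untreated and 21.9% of 2 h WT cells, and at the 95th 5.24% and 5%, with 0.909% of untreated Rad21-/- cells. The shares of untreated WT cells are set by the percentile. Depth limits the single genes, which apart from Pcna, Gins1 and Prim2 have fewer than 100 UMIs in each sample.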
